A study of Mus musculus with 2 samples.

Results

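The S100 genes examined here are 10 genes for small calcium-binding proteins, taken by symbol from the 23628 genes measured by RNA-sequencing in 2 libraries of *Sox9*GFPHi chondrospheres. They are *S100a1*, *S100a4*, *S100a6*, *S100a8*, *S100a9*, *S100a10*, *S100a11*, *S100a13*, *S100a16* and *S100b*. The chondrospheres are colonies that grow from single cells. The cells carried a homozygous IRES-EGFP reporter at the *Sox9* locus, here *Sox9*GFP, came from femoral heads of pups at postnatal day 7 and were sorted for high GFP and against the lineage markers CD31, Ter119 and CD45. They were cultured in methylcellulose under low oxygen, in a serum medium with FGF2, BMP4, IGF1, LIF and TGF-β1. Both libraries, called replicate 1 and replicate 2, are of this 1 condition. The study's methods harvested each pup as its own biological replicate, but the labels do not say which pups gave the libraries. Without a second condition no test was made. A difference between the libraries can hold biological and technical spread, which this design cannot tell apart. Bulk RNA cannot tell fewer cells of a type from less RNA per cell.

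S100 proteins are small proteins with a pair of EF-hands, helix-loop-helix motifs that bind calcium. They work mostly as dimers that bind other proteins when calcium rises, and some are also released and act on cell surface receptors. In cartilage, *S100a1* and *S100b* are known as targets of the SOX trio, the transcription factors SOX9, SOX5 and SOX6, and as brakes on terminal differentiation, and S100 protein staining is a long-used marker of chondrocytes. Other members are better known elsewhere, *S100a8* and *S100a9* in neutrophils and *S100a4* in fibroblasts and motile cells.

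The coding sequences of *S100a1* and *S100b*, the SOX trio targets, are shown to let their relatedness be seen. They come from the longest coding transcripts of GENCODE M21 on GRCm38, 285 bases for *S100a1* and 279 for *S100b* with the stop codon, read 5′ to 3′. Capitals mark bases that are identical in a global alignment of both.
S100a1: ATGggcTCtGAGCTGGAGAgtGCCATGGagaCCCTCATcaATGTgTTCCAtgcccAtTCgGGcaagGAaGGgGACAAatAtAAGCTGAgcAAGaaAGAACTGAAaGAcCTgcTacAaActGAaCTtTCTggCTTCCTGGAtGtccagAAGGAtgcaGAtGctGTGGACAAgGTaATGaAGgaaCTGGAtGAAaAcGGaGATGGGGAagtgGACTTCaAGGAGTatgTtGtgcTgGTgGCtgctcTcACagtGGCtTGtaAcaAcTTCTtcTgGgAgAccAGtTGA
S100b: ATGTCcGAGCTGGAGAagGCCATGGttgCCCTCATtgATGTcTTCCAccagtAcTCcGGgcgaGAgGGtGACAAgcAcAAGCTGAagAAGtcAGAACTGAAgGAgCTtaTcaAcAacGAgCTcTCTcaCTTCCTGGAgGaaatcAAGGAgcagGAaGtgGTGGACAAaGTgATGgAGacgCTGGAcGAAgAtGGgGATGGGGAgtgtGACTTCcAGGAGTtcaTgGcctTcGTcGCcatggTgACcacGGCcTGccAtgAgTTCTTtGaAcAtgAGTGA
The alignment held 180 identical bases of 279 aligned, or 64.5%. Over all 45 pairs of the 10 members, identity ran from 55.2% to 68.0% with a median of 61.1%, a range that holds the value of the 2 SOX trio targets. Identity was counted over aligned bases only, so gaps did not lower it. Pairs with *S100a13*, whose coding sequence here was the longest of the 10 at 483 bases, are affected by this. No window of 50 bases, the read length, was shared between members.

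Of the 10 genes, 9 lie on chromosome 3 and *S100b* lies alone on chromosome 10 from 76253853 to 76261159 (GRCm38). A first group of 7 members spans 185 kb of chromosome 3, from *S100a1* (90511034 to 90514392) to *S100a9* (90692632 to 90695721), and *S100a11* (93520488 to 93526287) and *S100a10* (93555080 to 93564643) lie 2825 kb further on. *S100a1*, on the minus strand, and *S100a13*, on the plus strand from 90514435 to 90524581, face away from each other with 42 bases between them, at chr3:90514393-90514434. That stretch, read on the plus strand, is shown because it separates the start sites of a SOX trio target and of a gene that is not known as one.
S100a1/S100a13: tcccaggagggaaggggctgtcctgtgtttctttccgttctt
*S100b* lies opposite *Dip2a*, with no exonic base shared. The 250 bases before its RefSeq start site, at chr10:76253586-76253835 on the plus strand of GRCm38.p6, are given for comparison.
S100b upstream: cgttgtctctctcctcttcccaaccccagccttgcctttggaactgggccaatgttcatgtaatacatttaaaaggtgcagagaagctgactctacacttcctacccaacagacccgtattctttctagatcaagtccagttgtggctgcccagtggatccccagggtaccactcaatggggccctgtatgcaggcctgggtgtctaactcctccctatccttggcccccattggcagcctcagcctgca
Promoter windows of 300 bases from RefSeq, 250 before and 50 after each start site, were matched for 9 of the 10 members, all but *S100a10*. They were searched on both strands for NNCAANG with A or T at each N, a set of 8 SOX words. The windows of *S100a1* and *S100b* held none, so neither sequence above carries capitals, and the only match among the members was CATTGTT, read from the opposite strand, in 1 of the 2 windows of *S100a16*. Of all 32851 windows, 24.6% held at least 1 of the words. The absence of a match says only that these letters are not in these windows.

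RNA-sequencing of the *Sox9*GFPHi chondrospheres detected 8 of the 10 S100 genes in both libraries and listed *S100a8* and *S100a9* at 0. The values are CPM, read counts scaled to the same total in each library, and the steps between low values imply a depth near 43300000 reads for replicate 1 and 42200000 for replicate 2. On these steps the detected members rested on between 86 reads (*S100a4*, replicate 1) and 21047 reads (*S100b*, replicate 1). Levels of the members were compared with each other as CPM per kb of the longest coding transcript, and plain CPM are given as the value in each library. The chondrocyte genes *Sox9*, *Col2a1*, *Acan*, *Col9a1*, *Col11a2*, *Matn1*, *Hapln1* and *Cnmd*, which check the cell type on the label, were all detected and summed to 174188 CPM in replicate 1 against 121296 in replicate 2. *Col2a1* made up most of both sums. *Matn1*, which encodes the cartilage matrix protein matrilin 1, differed most, with 902 CPM in replicate 1 against 29.2 in replicate 2. *Sox9* itself was used to sort the cells. Over the 12631 genes that averaged 1 CPM or more, log2 ratios of replicate 2 over replicate 1 had a median of 0.30. Ratios called centred have that median subtracted.

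*S100b* was one of the 2 highest S100 genes per kb, together with *S100a11*. It was measured at 486 CPM in replicate 1 against 271 in replicate 2. Its mean was 379 ± 152 CPM (SD, n = 2). Per kb its level was 328 CPM in replicate 1 against 183 in replicate 2, and the mean ranked 133 among the 15573 genes with a coding length, where *S100a11* ranked 128. Replicate 1 was the higher library for *S100b*, beyond counting error.

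*S100a1*, the other SOX trio target, lay well below it. It had 46.2 CPM in replicate 1 against 42.3 in replicate 2 (mean 44.3 ± 2.76, SD, n = 2), the smallest fold between the libraries among the detected members before centring. Per kb, *S100b* exceeded *S100a1* in both libraries, and the log2 ratio of *S100a1* to *S100b* was -2.26 in replicate 1 and -1.55 in replicate 2.

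Among the members that are not known SOX trio targets, *S100a11* and *S100a6* were of the same order as *S100b* and *S100a1*. *S100a11*, whose product binds annexin A1, had 93.0 CPM in replicate 1 against 174 in replicate 2. Per kb this came to 182 and 340 CPM, a mean of 261 ± 112 CPM per kb against 255 ± 103 for *S100b* (SD, n = 2 each). *S100b* was thus the higher of the pair in replicate 1 and *S100a11* in replicate 2, and their order was not settled. Of the 50-base windows of the *S100a11* transcript, 41.1% also occur in transcripts of *Gm12854*, *Gm29240* or *Gm7665*, so its reads can be shared. *Gm12854* was listed at 1.76 and 2.06 CPM.

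*S100a6*, which encodes calcyclin, had 40.7 CPM in replicate 1 against 129 in replicate 2. Per kb, its 55.7 CPM in replicate 1 was below *S100a1* at 68.3, and its 177 CPM in replicate 2 was above *S100a1* at 62.5 and close to *S100b* at 183. Its place in the order therefore depended on the library. It also depended on the length used, since the exons of *S100a6* cover 1367 bases against 731 in its longest coding transcript.

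*S100a10*, whose product p11 pairs with annexin A2, had 12.8 CPM in replicate 1 against 33.3 in replicate 2. *S100a13*, which takes part in the release of FGF1 from cells, had 12.2 and 16.8 CPM. *S100a16* had 9.63 and 14.6 CPM. All 3 were detected well above the limit of the depth in both libraries.

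*S100a4*, also called fibroblast-specific protein 1, was the lowest of the detected members with 1.99 CPM in replicate 1 against 5.91 in replicate 2. Of its 50-base windows, 56.3% are shared with *Gm42674*, a gene model that overlaps it on the same strand, so its level is uncertain. *S100a8* and *S100a9*, which form calprotectin, were at 0 in both libraries, which allows up to 0.0693 CPM in replicate 1 against 0.0712 in replicate 2 (3 reads each, counting error only).

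**Figure D1:**
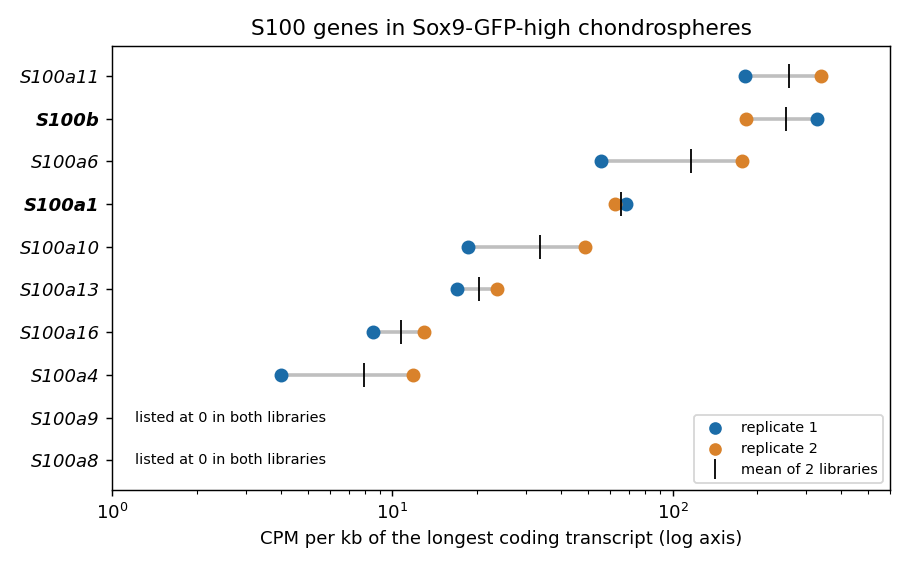
Level of each S100 gene as CPM per kb of its longest coding transcript, on a log axis, with 1 point for each library and a tick at the mean of the 2 libraries. *S100a11* and *S100b* are highest with their libraries in opposite order, *S100a1* has the smallest fold between libraries on this scale, and *S100a8* and *S100a9* are listed at 0.

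In order of mean CPM per kb the detected members were *S100a11*, *S100b*, *S100a6*, *S100a1*, *S100a10*, *S100a13*, *S100a16* and *S100a4*. Only 2 of the 7 steps between neighbours were larger than their spread and had the same direction in both libraries. *S100a1* exceeded *S100a10* by a log2 ratio of 1.12 ± 1.07 (SD, n = 2), and *S100a13* exceeded *S100a16* by 0.93 ± 0.09 (SD, n = 2). The other 5 neighbouring pairs did not differ beyond their spread.

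The design of this comparison set *S100a1* and *S100b* against the other 8 members. The mean log2 level of both, per kb, exceeded the median of the other 8 by 3.55 in replicate 1 (11.7-fold) and by 2.55 in replicate 2 (5.86-fold), a mean log2 ratio of 3.05 ± 0.70 (SD, n = 2). The median of the 8 was 12.8 CPM per kb in replicate 1 and 18.2 in replicate 2. Both targets lay above it in each library, *S100a1* by 5.33-fold and 3.43-fold and *S100b* by 25.6-fold and 10.02-fold. The median hides *S100a11* and *S100a6*, and it includes *S100a8* and *S100a9* at 0. Without those 2 genes the mean log2 ratio was 2.32.

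*S100a1* and *S100b* together made up 58.1% of the summed CPM per kb of the family in replicate 1 and 28.5% in replicate 2. The share of *S100b* alone was 48.1% in replicate 1 and 21.3% in replicate 2, while that of *S100a11* was 26.7% and 39.6% and that of *S100a6* 8.16% and 20.6%. On this scale the 2 targets thus made up most of the S100 transcripts in replicate 1 and a minority in replicate 2. Summed as plain CPM the 10 genes came to 703 in replicate 1 and 687 in replicate 2. Summed per kb they came to 682 and 859, so how far the family total differed depended on the scale. The mean shares depended on it too. Without division by length, *S100b* made up 54.3% instead of 34.7%, *S100a11* 19.3% instead of 33.1% and the 2 targets together 60.7% instead of 43.3%. With exonic length the mean share of *S100a6* was 8.64% instead of 14.4%.

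**Figure D2:**
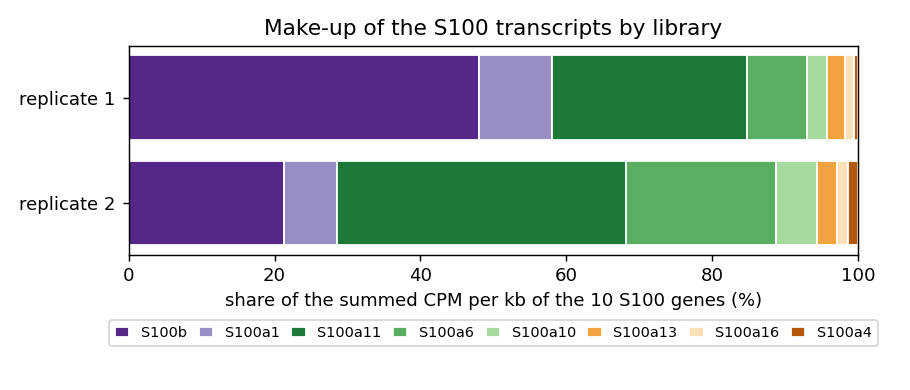
Share of each detected S100 gene in the summed CPM per kb of the 10 members, in percent, as 1 stacked bar for each library. The purple segments, *S100b* and *S100a1*, take 58.1% of replicate 1 and 28.5% of replicate 2.

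Between the libraries, the SOX trio targets and the other detected members lay on opposite sides of the median of all genes. *S100b* had a centred log2 ratio, replicate 2 over replicate 1, of -1.15 and *S100a1* of -0.43, with 95% counting intervals of ± 0.03 and ± 0.09. It ranged from 0.16 (*S100a13*) to 1.36 (*S100a6*) for the other 6, with 1.22 for *S100a4*, 1.07 for *S100a10*, 0.60 for *S100a11* and 0.29 for *S100a16*. The interval of *S100a13*, ± 0.16, reached 0. A median has as many genes on one side as on the other. The quartiles of the 12631 genes, -0.31 and 0.29, enclosed *S100a13* and *S100a16*. Of these genes, 4.71% lay below *S100b* and 18.7% below *S100a1*, while 64.6% lay below *S100a13* and 95.2% below *S100a6*. All of these intervals cover counting error only, and with 1 library on each side nothing beyond it was tested.

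The members were set beside all genes that averaged 1 CPM or more. More than 2-fold higher in replicate 2 after centring were 3 of the 8 detected members, *S100a6*, *S100a4* and *S100a10*, beside 7.43% of all genes tested. The counting intervals of *S100a4* (± 0.35) and *S100a10* (± 0.14) reached below 2-fold. With a pseudocount of 1 CPM the centred ratio of *S100a4* was 0.93, and 2 members were past 2-fold. More than 2-fold lower was 1 member, *S100b*, beside 6.06% of all genes, and without centring it was no longer past 2-fold. In plain CPM, 6 of the 8 were higher in replicate 2, close to the 74.3% of all genes that were.

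**Figure D3:**
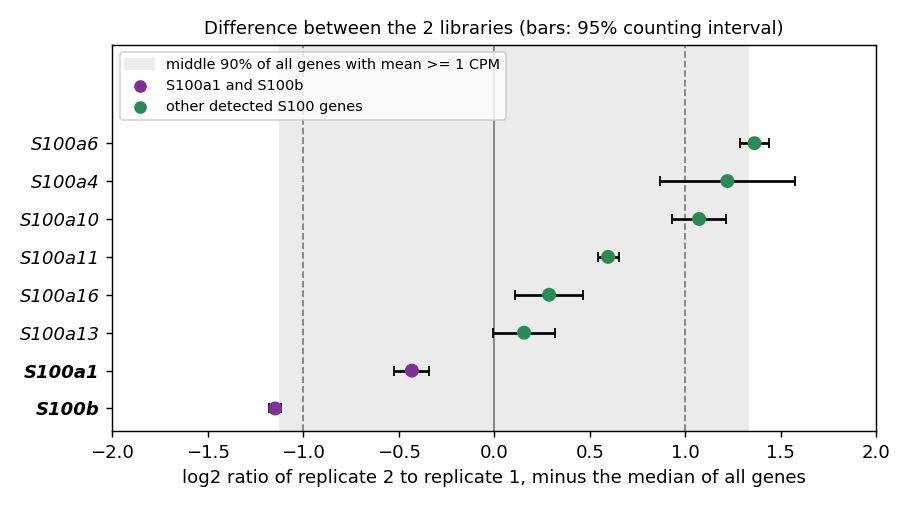
Centred log2 ratio of replicate 2 to replicate 1 for the 8 detected S100 genes, with 95% counting intervals, over a grey band for the middle 90% of the 12631 genes that averaged 1 CPM or more. The dashed lines mark 2-fold, and *S100b* and *S100a1* lie left of 0 while the other 6 lie to the right.

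Cartilage matrix genes also lay mostly below the median of all genes. Of 14 cartilage matrix genes, 13 had a centred log2 ratio below 0 (median over the 14, -0.83). More than 2-fold lower in replicate 2 were 4 of the 14, beside 6.06% of all genes, with *Matn1* the lowest at -5.25. The SOX trio genes lay nearer to that median. *Sox9* had 252 CPM in replicate 1 against 279 in replicate 2, *Sox5* 38.3 and 52.4 CPM, and *Sox6* 52.3 and 50.0 CPM, with centred log2 ratios of -0.16, 0.14 and -0.37.

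Within each library, *S100b* and *S100a1* were also set against *Col2a1*, the collagen II gene, and against *Sox9*. The log2 ratio per kb was -6.48 in replicate 1 and -6.76 in replicate 2, while that of *S100a1* to *Col2a1* was -8.74 and -8.30. Against *Sox9* the log2 ratio of *S100b* was 2.43 in replicate 1 and 1.44 in replicate 2 (SD 0.70, n = 2). *S100a1* was at the level of *Sox9*, with log2 ratios of 0.16 and -0.11 (SD 0.19, n = 2) whose sign differed between the libraries.

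Across the 42 bases that separate them, *S100a1* exceeded *S100a13* in both libraries. Per kb, *S100a1* had 68.3 CPM in replicate 1 and *S100a13* 17.1, and in replicate 2 they had 62.5 and 23.5. The mean log2 ratio of 1.70 was larger than its SD of 0.42 (n = 2). Reads of the pair were not mixed by overlap, since their annotated exons share no base.

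The partners of S100 proteins differed in how far their ratios varied between the libraries. *Anxa2*, which encodes annexin A2, had 108 CPM in replicate 1 against 277 in replicate 2, and its partner *S100a10* was likewise higher in replicate 2. The log2 ratio of *S100a10* to *Anxa2* per kb was -2.01 in replicate 1 and -1.98 in replicate 2, the smallest spread of the 9 ratios computed (SD 0.02, n = 2). Its difference between the libraries, 0.03, was below the counting interval of *S100a10* alone, ± 0.14. So close a pair of values says little about how tightly the 2 genes are tied, which was not tested. *Anxa1*, by contrast, had 53.1 and 265 CPM, and the log2 ratio of *S100a11* to it was 2.52 and 1.10. *S100a6* to *Cacybp*, which encodes the calcyclin-binding protein, gave 2.07 and 2.84.

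**Figure D4:**
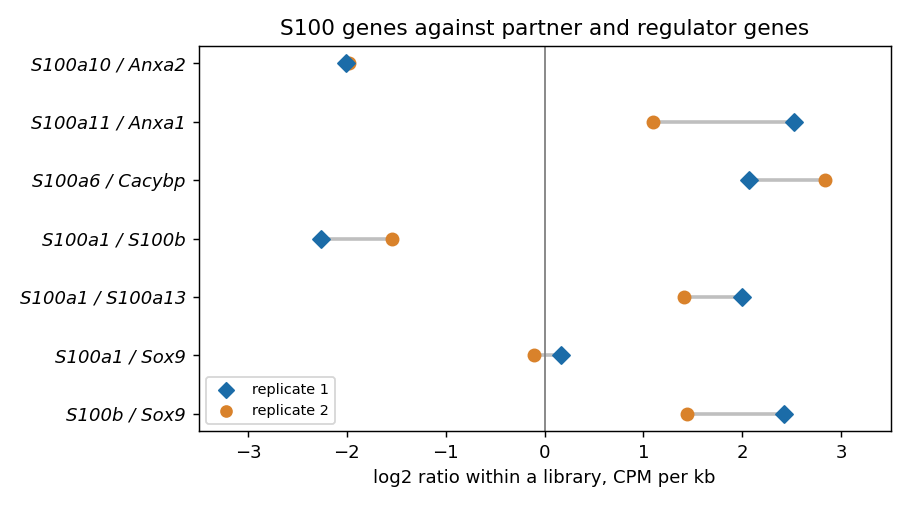
Log2 ratio per kb of S100 genes to partner and regulator genes within each library, with diamonds for replicate 1 and circles for replicate 2. The points of *S100a10* to *Anxa2* lie on each other near -2.0, those of *S100a11* to *Anxa1* lie at 2.52 and 1.10, and those of *S100a1* to *Sox9* fall on both sides of 0.

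Of 19 partner genes, 18 were listed and 15 had a mean of at least 1 CPM, and 11 of these had a centred log2 ratio above 0. The 3 that were more than 2-fold higher in replicate 2 were *Anxa1* (2.01), *Fgf1* (2.06) and *Anxa2* (1.05), and none was more than 2-fold lower. Of all genes, 7.43% were more than 2-fold higher and 6.06% lower. *Fgf1*, the cargo of the S100A13 release complex, had 2.77 and 14.7 CPM, a larger shift than that of *S100a13*. *Myh9*, the non-muscle myosin heavy chain that S100A4 binds, had 187 and 426 CPM. The median over the 15 was 0.25.

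Of 4 genes for receptors of released S100 proteins, 3 were detected in both libraries. *Bsg*, which encodes basigin, had 449 and 548 CPM, and *Tlr4* had 14.3 and 20.8 CPM. *Ager*, which encodes RAGE, the receptor for S100B and other S100 proteins, had 0.832 and 0.712 CPM, and *Cd36* was at 0 in both libraries.

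Of 8 further S100 genes, 3 were listed, all at few or no reads. *S100a2* was at 0 in both libraries, *S100a3* at 0 and 0.142 CPM, and *S100a7a* at 0.0693 and 0.237 CPM, no more than 10 reads in any library. *S100a5*, *S100a7l2*, *S100a14*, *S100g* and *S100z* were not analysed here. Of the fused-type S100 genes, which carry S100 domains in large epidermal proteins, *Tchh* (trichohyalin) had 5.22 and 5.74 CPM. *Flg* and *Rptn* were at 0. Of 11 EF-hand genes outside the S100 family that averaged 1 CPM or more, 0 were more than 2-fold higher in replicate 2, beside 7.43% of all genes. More than 2-fold lower was 1, beside 6.06% of all genes. That 1 gene was *Sparc*, which encodes the matrix protein osteonectin. It had 29449 CPM in replicate 1 against 13368 in replicate 2 and a centred log2 ratio of -1.44.

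The marker lists of other cells summed to at most 18.0 CPM in a library, apart from the fibroblast list. Of 11 neutrophil genes, 9 were at 0 in both libraries, among them the defining *Ly6g*, *Mpo* and *Elane*, and the list summed to 0.0924 CPM in replicate 1 against 0.119 in replicate 2. Of 10 macrophage genes 5 were at 0, including *Adgre1* and *C1qa*, and the sums were 5.94 and 6.91 CPM. *Cd14* with 2.68 and 3.42 CPM and *Cd68* with 2.56 and 2.40 CPM made up most of them. The glial list, for cells that also express *S100b*, summed to 2.77 and 2.68 CPM with *Sox10* at 0.0693 and 0 CPM. The adipocyte list summed to 16.6 and 18.0 CPM, with *Adipoq* and *Plin1* at 0. Its sums came from *Lpl* (7.83 and 5.84 CPM), *Fabp4* (6.89 and 6.62 CPM) and *Pparg* (1.92 and 5.50 CPM). Of the melanocyte list, summing to 10.5 and 8.23 CPM, *Dct* was at 0 and *Mitf* had 9.80 and 7.83 CPM. The skeletal muscle list summed to 10.4 and 3.95 CPM, of which *Tnnt3* had 9.01 and 2.18 CPM. The endothelial list summed to 0.37 and 0.26 CPM. The keratinocyte list summed to 3.56 and 11.01 CPM, of which *Lor* had 0.601 and 6.50 CPM.

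The fibroblast list is of interest for *S100a4* and summed to 6205 CPM in replicate 1 against 4470 in replicate 2. Collagen genes and *Dcn* made up most of these sums. Of its 9 genes that averaged 1 CPM or more, 4 were more than 2-fold lower in replicate 2, beside 6.06% of all genes. A centred log2 ratio above 0 was found for 2, *Fap* with 0.63 and *Pdgfra* with 0.10. The surface gene *Thy1* had 0.208 and 0 CPM and *Pdgfra* 2.03 and 2.71 CPM, while the surface gene *Pdgfrb* had 140 and 152 CPM. *Pi16* was at 0 in both libraries and *Dpt* had 0.162 and 0.142 CPM. Which cells the RNA of this list came from was not tested. *Col1a2* had 2714 and 2620 CPM, *Lum* 495 and 240 CPM, and *Postn* 179 and 107 CPM. The hypertrophy genes, of interest because *S100a1* and *S100b* are known as brakes on that step, had a median centred log2 ratio of 0.35 over 10 genes. Of these, 3 were more than 2-fold higher in replicate 2, beside 7.43% of all genes, and 1 lower, beside 6.06%. The higher genes were *Mmp13*, *Spp1* and *Alpl*, and the lower gene was *Runx3*. *Alpl* rested on 20 reads in replicate 1 and 81 in replicate 2. A centred log2 ratio above 0 was found for 6 of the 10. It was -0.04 for the collagen X gene *Col10a1*, -0.31 for *Pth1r* and -0.46 for *Vegfa*. The part of these differences, and of the cartilage genes, in the S100 values was not tested.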

How the data were processed

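RNA-sequencing was performed by the authors on poly(A) RNA in stranded, single-end libraries. Per the labels and the study's methods, reads were aligned to GRCm38 by STAR 2.7.3a with GENCODE M25, quantified by Partek's E/M algorithm, which can split reads between genes, and normalized in Partek Flow 10.0.21.0801. The deposited values are CPM with 0.0001 added to each, which was subtracted. The step between low values gave the CPM of 1 read. As 63.4% and 62.5% of the values below 1 CPM were whole multiples of it (within 0.02), reads were not recovered for all genes and no count model was fitted. The implied reads of the members lay within 0.0687 of a whole number, except *S100a11* at 0.200.

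Lengths and positions were read from GENCODE M21, a different release on the same build GRCm38 (22965 of 23628 names matched 1 gene), and promoters from RefSeq on GRCm38.p6. Log2 ratios between libraries used a pseudocount of 0.1 CPM, which understates the change of low genes. A gene was called past 2-fold after centring. Counting intervals (95%) treat implied reads as Poisson counts. PCR duplicates were not separated, so intervals and limits cover counting error only.

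The text names the 10 members, other S100 genes, and the partners, receptors and marker genes of hand-written lists. The members and lists were chosen with earlier results of these data known. The ratio of *S100a8* to *S100a9* was planned but both were at 0, and protein sequences were not used here. The ratio of *S100a1* to *S100a13* and the search for shared 50-base windows were added after the values had been seen. The computation was tested on simulated data. Alternatives covered scaling, pseudocount, filter, length, summary and each library. Computation used Python 3.11.15 with pandas 2.3.3 and numpy 2.4.6, alignment used biopython 1.88, and plots used matplotlib 3.10.9.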

Additional observations from a re-analysis of the deposited data

How the results depend on the processing

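No paired analysis was possible because the libraries are of 1 condition. With 2 libraries, leaving out 1 moves a mean by less than 1 SD by arithmetic, so it says nothing of stability. Of 177 alternative values for 37 results, 140 stayed within the tolerance of their kind, 34 moved past it and 3 changed sign. The 177 include the values with 1 library left out, which cannot move past 1 SD. The 140 therefore overstate how stable the results were. The tolerance was 1 SD of the libraries for levels, shares and ratios within a library, the counting interval for ratios between libraries, and 1.5 times for counts of members. All 3 changes of sign were of *S100a1* to *Sox9*, whose mean log2 ratio was 0.03. It became -2.58 without division by length, -0.0086 with exonic length and -0.11 without replicate 1, against 0.16 without replicate 2.

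Without the 10 highest genes in the total, *S100a1* had 72.9 and *S100b* 634 CPM. The log2 ratio of *S100a1* and *S100b* to the other 8 was 3.94 as a mean of log2 values with genes at 0 set to 3 reads, and 2.32 over members averaging 1 CPM or more. Without centring, 0 members were more than 2-fold lower in replicate 2. Of members more than 2-fold higher, 2 instead of 3 were counted with a pseudocount of 1 CPM, where *S100a4* had 0.93, and with a minimum mean of 10 CPM, which leaves *S100a4* out. The mean share of *S100a4* was 0.571% without division by length instead of 0.983%, and that of *S100a10* 2.65% with exonic length instead of 4.19%. Without division by length, the log2 ratios were -3.07 for *S100a10* to *Anxa2*, 0.10 for *S100a11* to *Anxa1*, 0.93 for *S100a6* to *Cacybp*, -3.04 for *S100a1* to *S100b*, 0.45 for *S100b* to *Sox9*, -11.44 for *S100a1* to *Col2a1* and -8.40 for *S100b* to *Col2a1*. With exonic length they were -1.45 for *S100a10* to *Anxa2*, 1.74 for *S100a6* to *Cacybp*, -7.70 for *S100a1* to *Col2a1* and -5.76 for *S100b* to *Col2a1*. These follow from the lengths used. Groups of 2 libraries are too small for a test of outliers.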
